A study of Mus musculus with 9 samples.

Results

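The comparison described here sets 3 arrays of Neuro2a cells given an siRNA against LSD1 (siLSD1) beside 3 arrays of the same cells given a control siRNA (siControl), across 18193 genes. The 6 arrays were chosen by their titles and are 6 of the 9 arrays of the series. Neuro2a is an established mouse neuroblastoma line, and RNA was taken 48 h after the start of siRNA treatment. The other 3 arrays, of cells given an siRNA against Myt1 (siMyT1), a neural zinc finger transcription factor, entered the fit only through the shared estimate of the spread. They also counted in the mean over all 9 arrays, by which each gene's probe set was chosen and its level set. No other allele or agent is named in the labels, each group is the same line, and no cell other than Neuro2a was sampled. The labels do not say that the replicates were separate cultures, so the p-values measure only the spread between these samples, which may be technical.

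LSD1, encoded by Kdm1a, is a flavin-dependent demethylase that removes methyl groups from lysine residues of histone H3. It acts mainly in corepressor complexes with CoREST scaffold proteins and the deacetylases HDAC1 and HDAC2, which DNA-binding factors bring to promoters and enhancers. LSD1 is known as a repressor of neuronal and other lineage genes outside their proper cells, and as a protein that proliferating progenitors and many tumours contain at high levels.

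Intensities are given in the deposited units, array by array in the order of replicates 1, 2 and 3, and a log2 difference is siLSD1 minus siControl on the scale of log2(intensity + 0.2), which understates the change of dim genes. A gene is called, and is said to have risen or fallen, where limma gave an adjusted p under 0.05 over all 18193 genes. A gene's arrays are said to lie apart where every siLSD1 array is above, or every one below, all siControl arrays. An exact permutation test of 3 against 3 arrays cannot go below p = 0.1, so every p-value quoted comes from limma. The same 3 control arrays stand behind every comparison.

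Kdm1a itself was measured by 2 probe sets, and both fell on every siLSD1 array. The brighter probe set read 28.1, 30.1 and 28.9 units in siControl and 4.8, 4.05 and 4.63 in siLSD1, or 15.5% of control (log2 difference -2.64, SE 0.07, adjusted p = 3.17e-10). The dimmer one read 14, 14.7 and 14.9 units in siControl and 1.23, 0.907 and 1.17 in siLSD1, or 7.59% of control. The siMyT1 arrays, at 29.9, 30.1 and 32.8 units by the brighter probe set, were near the control arrays. The line matched its label: 9 of 10 measured neuroblastoma and sympathoadrenal markers had a mean of at least 1 unit, and their summed level was 159 to 180 units in siControl and 179 to 196 in siLSD1. These markers did not move together, as 4 rose and 1, Hand2, fell. Of 7 fibroblast, 6 macrophage and 4 endothelial markers 0 reached 1 unit, as did 1 of 5 glial markers (Erbb3) and 1 of 5 epithelial markers (Epcam), and 0 of these 27 markers was called.

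In all, 722 genes were higher (3.97% of those tested) and 898 lower (4.94%) in siLSD1. The 3 siLSD1 arrays lay above all control arrays for 1938 genes (10.7%) and below them for 2936 (16.1%). The median gene differed by -0.03. Rises made up 44.6% of the calls, but 50.4% after quantile normalization (1415 higher, 1394 lower), 61.3% after centring each array on its median (1250 and 789) and 53.7% after centring on the genes of at least 4 units (1472 and 1271), so the majority direction depends on the scaling. These scalings moved the median gene to between 0.00 and 0.03. Leaving out siControl replicate 1 gave 431 rises and 538 falls, and leaving out siControl replicate 3 gave 454 and 799. Leaving out siLSD1 replicate 1 gave 448 and 770, and siLSD1 replicate 3, 442 and 522. The majority turned on leaving out siControl replicate 2 (713 and 531) or siLSD1 replicate 2 (731 and 587).

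Calls were spread unevenly over the range of intensity. Among 7807 genes with a mean under 0.5 units, 0.256% were higher and 0.615% lower. The shares climbed to 8.37% and 11% among 2307 genes of 4 to 8 units and 8.74% and 11.4% among 1957 genes of 8 to 16 units. From 32 to 64 units they were 9.68% and 6.11%, with more rises than falls, and above 64 units, in 234 genes, 3.42% and 1.71%. The median standard error of the log2 difference was 0.18 under 0.5 units, 0.09 from 4 to 8 units and 0.07 above 8 units.

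**Figure D1:**
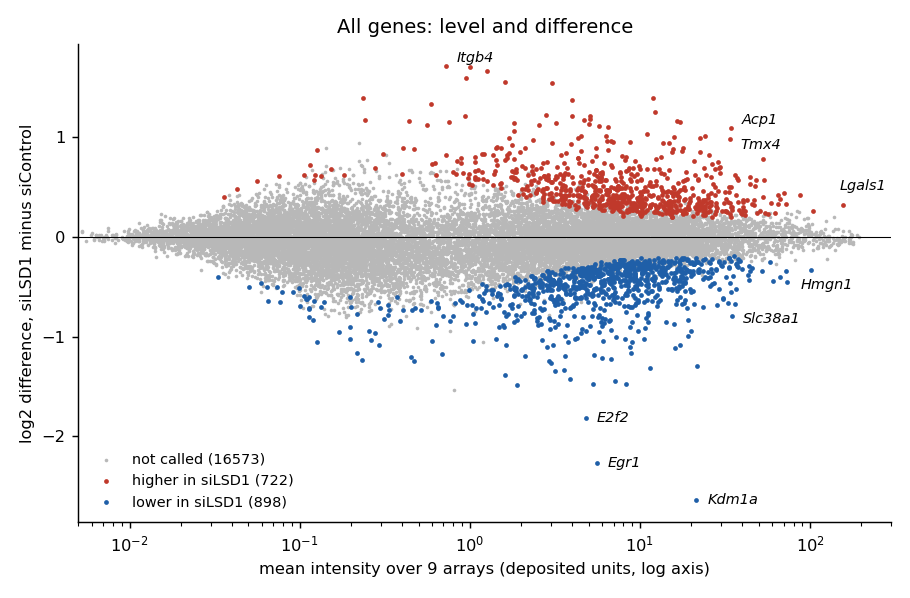
Mean intensity over 9 arrays (x axis, deposited units, log scale) and log2 difference of siLSD1 minus siControl (y axis) for each of 18193 genes. Each point is a gene, coloured where called higher (722) or lower (898), and Kdm1a at -2.64 is the lowest point.

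**Figure D2:**
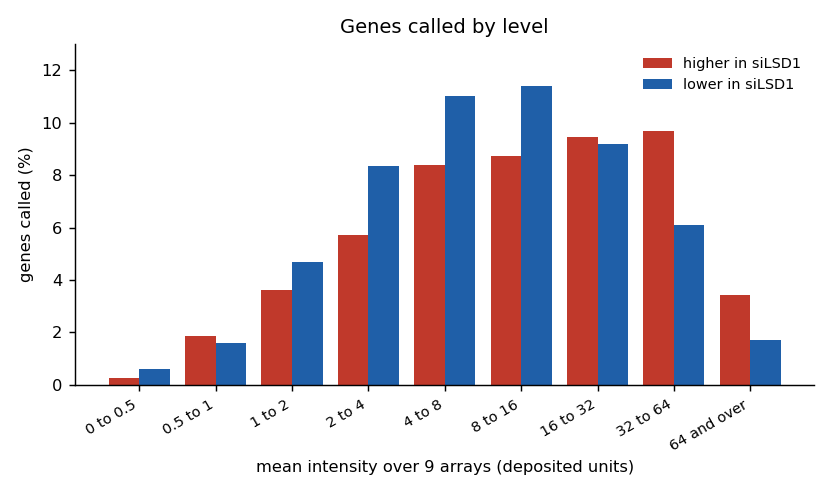
Percentage of genes called higher and lower in siLSD1 (y axis) by mean intensity over 9 arrays (x axis, deposited units). Both shares are under 1% for the dimmest class, the falls peak at 11.4% from 8 to 16 units, and the rises at 9.68% from 32 to 64 units.

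Genes were grouped in 71 families and pathways, which hold 3064 of the genes tested. Families are described by how many measured members were called in each direction, to be read beside 3.97% higher and 4.94% lower over all genes, and by the median log2 difference of their members, beside -0.03 for all genes. These shares differ with level, at 0.256% and 0.615% under 0.5 units and 8.74% and 11.4% from 8 to 16 units. A family's count must therefore also be read beside the level of its members. Where the balance of a family moved with the scaling, its rises and falls after quantile normalization, after centring on all genes and after centring on genes of at least 4 units follow in that order, as rescaled counts.

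In chromatin families, the setting in which LSD1 works, most members were not called. Of 24 histone lysine demethylases 5 fell and 0 rose by limma (6 lower and 0 higher at an unadjusted p under 0.05), Kdm1a included, with a median of -0.09. The rescaled counts were 1 and 5, 1 and 4, 1 and 5. Kdm6b, which removes the Polycomb mark from H3K27, read 10.4, 10.8 and 9.7 units in siControl and 6.75, 5.57 and 6.46 in siLSD1. Its arrays lay apart, and it fell by 0.70 on the log2 scale (SE 0.08, adjusted p = 0.000121). The PHD finger demethylase Phf8 fell by 0.55, a call lost on averaging the gene's probe sets (adjusted p = 0.168). Kdm5a, an H3K4 demethylase, and Phf2 made up the 5 at -0.36 and -0.32, but both lost the call when siControl replicate 1, 2 or 3 or siLSD1 replicate 2 or 3 was left out (adjusted p up to 0.104 and 0.119), and in each of those settings 3 demethylases were called. Kdm3a and Kdm7a, the brightest demethylases not called, differed by -0.14 and 0.05.

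Histone lysine methyltransferases gave 6 falls and 1 rise among 27 measured members (median -0.08, rescaled 5 and 8, 4 and 5, 4 and 8). Kmt2a, the MLL1 methyltransferase of H3K4, read 6.49, 6 and 6.01 units in siControl and 5.06, 4.62 and 4.57 in siLSD1. The groups did not overlap, and the fall of 0.36 passed the test (SE 0.07, adjusted p = 0.00703). Setd7, an H3K4 monomethylase, was the member that rose, by 0.67 (adjusted p = 7.7e-05), and Kmt5a, which monomethylates H4K20, and Nsd3 fell by 0.43 and 0.37. The calls of Setd7, Kmt5a and Nsd3 were lost on averaging probe sets (adjusted p = 0.146, 0.325 and 0.19). Ehmt2, the H3K9 methyltransferase G9a, read 23, 26.8 and 28.7 units in siControl and 26.4, 25.5 and 26.5 in siLSD1, a difference of 0.01.

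The partners of LSD1 in the CoREST complex were mostly near their control level. Of 22 measured subunits and associated factors 3 fell and 1 rose (rescaled 3 and 3, 3 and 3, 4 and 4), with a median of 0.02. Gse1, a proline-rich component of the complex, read 5.4, 5.87 and 5.04 units in siControl and 7.63, 6.93 and 7.24 in siLSD1. All 3 siLSD1 values were higher, by 0.41 on the log2 scale (SE 0.07, adjusted p = 0.00332). The corepressor Ctbp2 fell by 0.31, and lost the call without siControl replicate 2, siLSD1 replicate 2 or siLSD1 replicate 3 (adjusted p up to 0.0903). Rreb1, a zinc finger partner of the complex, was dim at 0.345 to 0.434 units in control, and its call was lost without any 1 siControl array or siLSD1 replicate 1 or 2 (adjusted p up to 0.165). The third fall, of Rcor3, kept its call without any 1 array but lost it on averaging probe sets (adjusted p = 0.113). Its 3 bright probe sets ran from -0.55 to -0.32, and 2 of them were called lower. Without siControl or siLSD1 replicate 2, 1 member was called lower. Ctbp1 read 41.8, 44.4 and 41 units in siControl and 44.3, 39.2 and 43 in siLSD1, a difference of -0.01. The deacetylases Hdac1 and Hdac2 differed by -0.18 (adjusted p = 0.133) and -0.10 (adjusted p = 0.429), and neither passed the test.

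Polycomb proteins, which place and read repressive marks on histones H2A and H3, gave 4 falls and 1 rise in 26 (rescaled 3 and 4, 3 and 3, 3 and 4). Pcgf5, a RING finger subunit of a variant Polycomb repressive complex, read 9.57, 9.14 and 8.93 units in siControl and 3.61, 2.78 and 3.37 in siLSD1, or 35.3% of control. It fell with both groups far apart (log2 difference -1.45, SE 0.09, adjusted p = 1.13e-06). Phf1, an accessory subunit that recognises methylated H3K36, went the other way, from 1.54, 1.43 and 1.55 units to 2.51, 2.31 and 2.61 (log2 difference 0.65, SE 0.13, adjusted p = 0.00595). Ezh2, the H3K27 methyltransferase, fell by 0.36 (adjusted p = 0.0253), a call lost without siControl replicate 1 or 2 or siLSD1 replicate 2 or 3 (adjusted p up to 0.111). Suz12, its scaffold, fell by 0.34, a call lost on averaging probe sets (adjusted p = 0.3). Bmi1, the brightest member not called, differed by 0.02.

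Other chromatin enzymes gave single calls. Hdac9, a class IIa deacetylase of muscle and neurons, read 2.37, 2.44 and 1.97 units in siControl and 1.27, 1.13 and 1.14 in siLSD1. It was the 1 call among 18 deacetylases and sirtuins (rescaled 1 and 2, 1 and 1, 1 and 2), with no overlap between groups (log2 difference -0.83, SE 0.13, adjusted p = 0.00111). Hat1, which acetylates newly made histone H4, fell by 0.48 (SE 0.07, adjusted p = 0.000891) as the 1 call among 13 acetyltransferases (rescaled 1 and 1, 1 and 1, 1 and 1). In the SWI/SNF remodelling complexes 2 of 27 members fell and 1 rose (rescaled 3 and 5, 2 and 1, 5 and 3), so the balance depended on the scaling. Ss18 fell by 0.23, a call lost without siControl replicate 1 or 2 or siLSD1 replicate 2 or 3 (adjusted p up to 0.162). Arid2, a subunit of the PBAF form, read 17, 19.8 and 18.4 units in siControl and 14.1, 12.5 and 14.1 in siLSD1, a fall of 0.44 with no overlap (adjusted p = 0.00205). Of 14 DNA methylation enzymes and readers 0 were called by limma (1 higher and 3 lower at an unadjusted p under 0.05, rescaled 1 and 1, 0 and 0, 1 and 0), Dnmt1 differing by -0.18 and Uhrf1 by -0.05.

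Among histone genes, 5 of 25 fell and 0 rose (7 lower and 1 higher at an unadjusted p under 0.05). Both genes of the variant H2A.Z were among them. H2az1 read 38.9, 40.9 and 39.3 units in siControl and 26.3, 25 and 23.8 in siLSD1, and H2az2 20.8, 22.5 and 20.1 against 16.2, 14.5 and 15.5. In neither gene did the groups overlap, and the falls were 0.66 (SE 0.08, adjusted p = 0.000104) and 0.45 (SE 0.07, adjusted p = 0.000837). The linker histone H1f2 fell by 0.58, a call lost on averaging probe sets (adjusted p = 0.219), and the count was 3 without siControl replicate 1. H2ax, which is phosphorylated at DNA breaks, read 14.9, 13.9 and 15.4 units against 13.3, 12 and 12.2, with arrays apart but an adjusted p of 0.0706.

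The families of the cell division cycle held the most one-sided counts. In 6 of them, from the E2F factors to the spindle proteins, 91 of 197 measured genes fell and 0 rose by limma. Under quantile normalization 107 fell and 2 rose, under centring on the median of all genes 80 and 2, and under centring on genes of at least 4 units 106 and 2. Falls numbered 58 without siControl replicate 1 or 2 and 59 without siLSD1 replicate 3. The same group of pathways was known from earlier results of these data to fall, so the counts describe its breadth and are no independent support. Shares of cells in each phase of the cycle and the RNA of each gene per cell cannot be told apart in bulk RNA.

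E2F factors, with their DP partners, switch on genes for S phase, and RB family proteins hold them in check. Of 21 measured E2F, RB and Myb family factors 12 fell and 0 rose (15 and 0 at an unadjusted p under 0.05), with a median of -0.37. E2f7, an atypical E2F that represses, read 5.46, 5.83 and 6 units in siControl and 2.99, 2.5 and 2.79 in siLSD1. Its groups were well apart, at 47.9% of control (log2 difference -1.01, SE 0.10, adjusted p = 2.66e-05). Tfdp2, a DP partner, fell from 4.34, 4.62 and 4.47 to 2.95, 2.55 and 2.59 units (log2 difference -0.69, SE 0.09, adjusted p = 0.000239). E2f1 and E2f5 were the brightest members not called. E2f1 read 12.1, 13.1 and 11.9 units in siControl and 12.8, 10.4 and 12.1 in siLSD1, overlapping, with a difference of -0.07 (adjusted p = 0.706). E2f6, a repressive E2F, fell by 0.89, a call lost on averaging probe sets (adjusted p = 0.0888).

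To show where E2F sites stand in such genes, the 120 bases before the start site are printed for 6 genes of these families that fell and hold the motif there, 5′ to 3′ on the strand of the gene, from RefSeq on GRCm38.p6. Capitals mark matches to the E2F motif TTTNNCGC on either strand. Cenpk and Cenpm encode proteins of the inner kinetochore, Cdca5 is sororin, a stabiliser of cohesin, Cdc25a is a phosphatase that activates cyclin-dependent kinases, Rbl1 is the RB relative p107 and Tfdp1 the main DP partner of E2F factors. They lie at chr13:104229268-104229387 (+ strand, Cenpk), chr19:6084977-6085096 (+, Cdca5), chr15:82244337-82244456 (- strand, Cenpm), chr9:109875459-109875578 (+, Cdc25a), chr2:157204535-157204654 (-, Rbl1) and chr8:13338631-13338750 (+, Tfdp1).
Cenpk: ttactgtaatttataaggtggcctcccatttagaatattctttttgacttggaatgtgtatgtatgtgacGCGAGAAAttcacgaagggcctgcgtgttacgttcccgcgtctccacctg
Cdca5: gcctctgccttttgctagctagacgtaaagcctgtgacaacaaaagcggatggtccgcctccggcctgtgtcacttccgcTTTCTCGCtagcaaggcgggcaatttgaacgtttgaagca
Cenpm: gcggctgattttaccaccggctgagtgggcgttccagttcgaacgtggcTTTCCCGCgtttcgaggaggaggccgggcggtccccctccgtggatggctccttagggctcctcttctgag
Cdc25a: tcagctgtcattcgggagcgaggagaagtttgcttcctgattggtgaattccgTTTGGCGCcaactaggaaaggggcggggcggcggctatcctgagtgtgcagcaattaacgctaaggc
Rbl1: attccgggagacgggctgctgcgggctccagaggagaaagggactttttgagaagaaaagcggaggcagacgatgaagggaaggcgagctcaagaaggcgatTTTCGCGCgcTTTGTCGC
Tfdp1: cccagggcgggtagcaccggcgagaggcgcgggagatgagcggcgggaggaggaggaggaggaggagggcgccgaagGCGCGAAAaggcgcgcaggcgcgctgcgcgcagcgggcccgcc

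The motif's leading base stood 50 bases before the start site in Cenpk, 40 in Cdca5, 71 in Cenpm, 67 in Cdc25a, 18 and 8 in Rbl1 and 43 in Tfdp1. Over 18009 RefSeq promoters of 14368 measured genes, read from 250 bases before to 50 after the start on both strands, 6.99% held TTTNNCGC. The share was 11.2% among promoters of genes that fell, 6.06% among those of genes that rose and 6.79% among the rest. In the 6 cell cycle families it was 29.2%, at 29.4% in members that fell and 29% in members not called. The cell cycle element, counted as TTTGAA or TTCGAA, was in 15.1% of all promoters, 18.6% of those of genes that fell and 10.8% of those of genes that rose. It was in 74.4% of 39 promoters of the mitotic list. CCAAT stood in 37.4% of all promoters, 42.2% of those that fell and 33.2% of those that rose. The core motif of Myt1, AAAGTTT, was in 4.01% of all promoters, 3.3% with genes that fell and 3.47% with genes that rose. Motifs were counted separately where they overlapped, and a match describes letters in this window, not binding.

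Replication proteins load and run the helicases and polymerases of S phase, and 19 of 50 fell while 0 rose (33 and 0 at an unadjusted p under 0.05). Orc6, the smallest subunit of the origin recognition complex, read 10.5, 10.4 and 10.1 units in siControl and 7.42, 7.05 and 7.18 in siLSD1. It fell by 0.51 with little spread within either group (SE 0.07, adjusted p = 0.00041). The single-strand binding proteins Rpa1 and Rpa3 fell together. Rpa3 read 20.2, 21 and 20 units against 16, 13.5 and 14.9 (log2 difference -0.46, SE 0.07, adjusted p = 0.000793), and Rpa1 26.5, 26.3 and 25.8 against 20.1, 16.8 and 19.2 (-0.49, SE 0.07, adjusted p = 0.000959). The licensing factor Cdt1 and the helicase subunit Mcm7 were brighter and overlapped. Cdt1 read 68.8, 70.2 and 66.8 units in siControl and 68.1, 59.4 and 63.8 in siLSD1, a difference of -0.11 (adjusted p = 0.441).

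Nucleotide synthesis was split. Both main subunits of ribonucleotide reductase, which makes deoxynucleotides, fell. Rrm2 read 20.7, 23.2 and 20.5 units in siControl and 14.2, 13.8 and 13.4 in siLSD1, and Rrm1 23.3, 23.6 and 22.1 against 18.4, 13.5 and 15.8. In both the groups were apart, with falls of 0.63 (SE 0.07, adjusted p = 6.87e-05) and 0.54 (SE 0.09, adjusted p = 0.00223). The purine enzyme Adsl rose from 7.34, 8.87 and 7.65 to 12, 10.3 and 10.8 units (log2 difference 0.46, adjusted p = 0.00452). Dut and Tk1, which supply thymidine nucleotides, made up the 4 falls among 23 members (rescaled 2 and 6, 2 and 2, 3 and 6) at -0.22 and -0.30. Dut lost its call without any 1 of the 6 arrays (adjusted p up to 0.13) and Tk1 without any 1 except siLSD1 replicate 1 (up to 0.124), which left 2 falls except without siLSD1 replicate 1.

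Repair by recombination and the Fanconi pathway gave 11 falls and 0 rises in 27 (16 and 0 at an unadjusted p under 0.05), with a median of -0.35. Brca1 fell from 11.7, 13 and 12 to 8.73, 7.68 and 8.66 units (log2 difference -0.54, SE 0.07, adjusted p = 0.000346) and the exonuclease Exo1 from 8.39, 9.92 and 9.21 to 6.02, 5.04 and 7.34 (-0.58, SE 0.11, adjusted p = 0.00452). In both genes the groups were apart. The count was 4 without siControl replicate 1 or 2 or siLSD1 replicate 2, 6 without siLSD1 replicate 3 and 7 without siLSD1 replicate 1.

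Kinetochore and centromere proteins, which tie chromosomes to the spindle, gave 18 falls and 0 rises in 33 (24 and 0 at an unadjusted p under 0.05). Cenpm read 7.36, 7.36 and 6.01 units in siControl and 3.8, 3.8 and 4.01 in siLSD1, or 56% of control. Its groups were apart, with a log2 difference of -0.80 (SE 0.10, adjusted p = 0.000279). Spc25, of the NDC80 complex that grips microtubules, fell from 7.73, 7.53 and 6.87 to 4.53, 4.6 and 4.5 units (-0.67, SE 0.09, adjusted p = 0.000344). Cenpq fell by 0.58 and Dsn1 by 0.51. Cenpk, whose promoter is printed above, fell by 0.58, a call lost on averaging its probe sets (adjusted p = 0.132). Zwint, the brightest member not called, read 33.7, 33.7 and 34.4 units against 33.9, 26.9 and 31.9. Without siControl replicate 1 or 2 there were 11 falls, and 10 without siLSD1 replicate 3.

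Cohesin holds sister chromatids together and condensin compacts them, and 13 of 22 such proteins fell while 0 rose (13 and 0 at an unadjusted p under 0.05). Cdca5 read 7.9, 8.27 and 7.65 units in siControl and 5.34, 4.35 and 5.1 in siLSD1. With no overlap it fell by 0.67 (SE 0.08, adjusted p = 0.000189). The condensin subunits Ncapg and Smc2 fell by 0.73 (SE 0.11, adjusted p = 0.00091) and 0.40 (SE 0.07, adjusted p = 0.00222), and Sgo1, the shugoshin that guards centromeric cohesion, by 0.60. The core cohesin subunits Smc1a and Rad21 were the brightest members not called, at -0.12 and -0.11. The count was 6 without siControl replicate 2 or siLSD1 replicate 3 and 7 without siControl replicate 1 or siLSD1 replicate 2.

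Mitotic kinases, checkpoint and spindle proteins gave 18 falls and 0 rises in 44 (27 and 1 at an unadjusted p under 0.05). Cdc25a read 10.1, 10.2 and 8.84 units in siControl and 6.64, 5.04 and 6.07 in siLSD1, with groups apart and a fall of 0.70 (SE 0.10, adjusted p = 0.000529). Falls of called members ran from 0.29 to 0.76. Some bright mitotic genes were level: Racgap1, a regulator of cytokinesis, read 41.3, 43.1 and 36.8 units in siControl and 44.5, 41.5 and 43.3 in siLSD1, and Bub3, a checkpoint protein, 30.2, 28.1 and 30.3 against 34.7, 31 and 30. Their differences of 0.09 and 0.11 did not pass the test.

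Control of entry to S phase changed both ways. Among 18 G1 cyclins, kinases and inhibitors 5 fell and 2 rose. The cyclin E genes, which drive the G1/S step, fell: Ccne2 read 5.12, 6.49 and 5.12 units in siControl and 3.34, 2.99 and 2.96 in siLSD1, and Ccne1 8.35, 8.61 and 6.78 against 4.84, 3.67 and 4.68. Neither overlapped, with falls of 0.80 (SE 0.10, adjusted p = 0.000167) and 0.82 (SE 0.12, adjusted p = 0.000607). Cdkn2c, the CDK inhibitor p18, also fell, from 4.19, 5.13 and 4.49 to 2.33, 1.99 and 2.34 units (log2 difference -0.99, SE 0.10, adjusted p = 3.84e-05), as did Skp2, a ubiquitin ligase subunit that degrades p27 (-0.69, adjusted p = 0.000167). Cyclin D1 rose and Cdk4, its partner, read 47.7, 47.1 and 48.4 units against 48.6, 41.1 and 46, a difference of -0.08. Among 21 p53 targets 3 fell and 2 rose (rescaled 3 and 4, 3 and 3, 3 and 4). Phlda3, an AKT inhibitor, rose from 9.36, 10.3 and 9.41 to 15.5, 15.9 and 15.4 units (log2 difference 0.68, SE 0.07, adjusted p = 6.48e-05), while Zmat3, a zinc finger RNA-binding protein, fell by 0.66 (adjusted p = 0.000198). Mdm2, the ubiquitin ligase of p53 and itself a target, differed by -0.05 (adjusted p = 0.739).

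**Figure D3:**
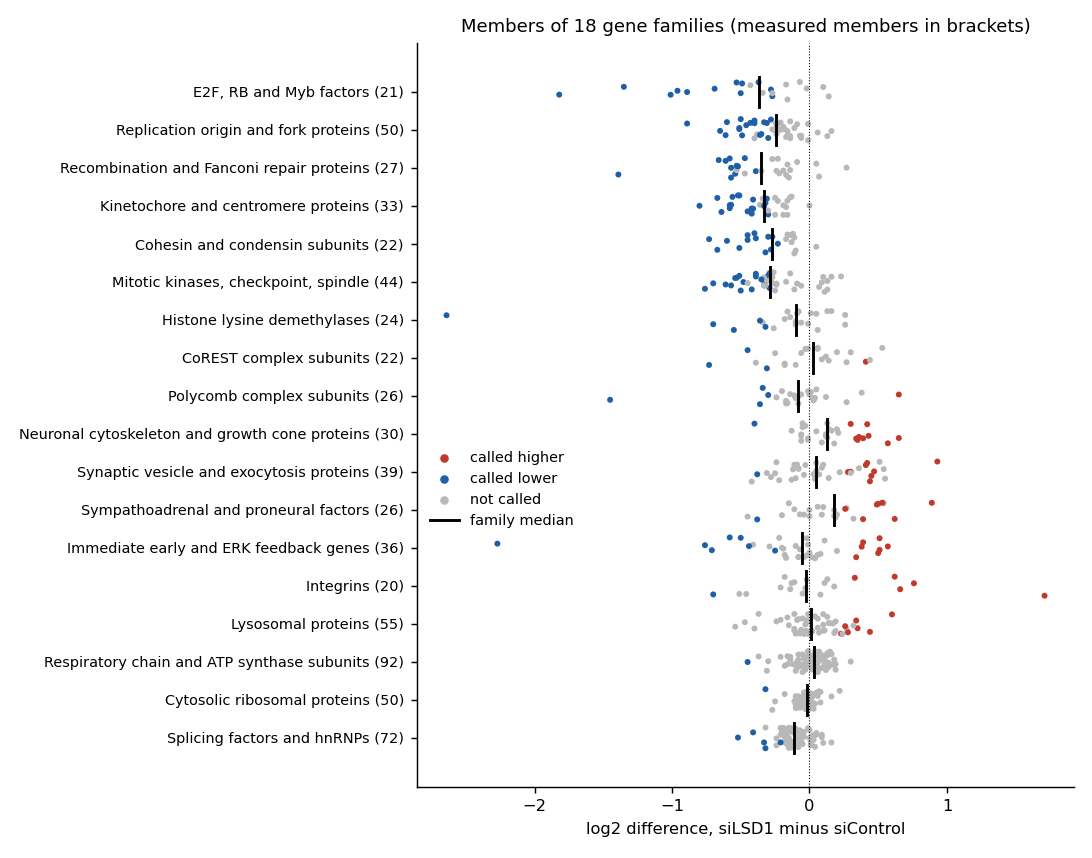
Log2 difference of siLSD1 minus siControl (x axis) for each measured member of 18 families (rows), coloured where called higher or lower, with a bar at the family median. The first 6 rows, the cell cycle families, have medians from -0.37 to -0.24 and no called rise, while ribosomal and respiratory chain genes cluster near 0.

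The neuronal cytoskeleton and synaptic families had more rises than falls among their called members. Of 30 neuronal cytoskeleton and growth cone proteins 9 rose and 1 fell, with a median of 0.13. Crmp1, a collapsin response mediator that binds tubulin, read 28.3, 31.2 and 29.3 units in siControl and 39.7, 34.8 and 38.6 in siLSD1. All siLSD1 arrays were higher, by 0.35 on the log2 scale (SE 0.07, adjusted p = 0.00587). Map6, which stabilises microtubules, rose by 0.39 and Marcks, a substrate of protein kinase C at the membrane, fell by 0.40, both calls lost on averaging probe sets (adjusted p = 0.0539 and 0.089). Stmn1, a microtubule destabiliser and 1 of the brightest genes, read 150, 147 and 140 units against 149, 141 and 144, a difference of -0.01. There were 5 rises without siControl replicate 1 or 3 or siLSD1 replicate 1 or 3.

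Of 39 synaptic vesicle and exocytosis proteins 8 rose and 1 fell, beside a median of 0.05. Syngr3, a synaptic vesicle membrane protein, read 3.21, 3.43 and 2.67 units in siControl and 5.88, 5.69 and 6.69 in siLSD1, which is 1.96 times control. It had the largest rise of the family and the groups were apart (log2 difference 0.93, SE 0.10, adjusted p = 9.01e-05). Syt11, a synaptotagmin, rose from 14.4, 15.2 and 14.6 to 21, 18.1 and 21.3 units (0.44, SE 0.07, adjusted p = 0.00152) and Syn2, a synapsin that tethers vesicles, from 14.9, 17 and 14 to 21.8, 18.9 and 22.2 (0.45, SE 0.08, adjusted p = 0.00324). Rab3a, a vesicle GTPase, was the fall at -0.38, and its direction turned to 0.17 by its other probe set. The call was also lost without siControl replicate 1 or 2 or siLSD1 replicate 2 or 3 (adjusted p up to 0.0732). Rises numbered 4 without siControl replicate 1 and 5 without siLSD1 replicate 3. Nsf, the ATPase that recycles SNARE proteins, differed by -0.10 (adjusted p = 0.55).

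Lineage factors and transmitter enzymes of sympathetic cells rose in part. Among 26 sympathoadrenal and proneural factors 7 rose and 1 fell, with a median of 0.18. The fall was that of Hand2, from 50.3, 56.9 and 48 to 42.8, 37.4 and 39 units (log2 difference -0.38, SE 0.08, adjusted p = 0.00703). Tbx2, a T-box factor, read 5.73, 6.49 and 6.35 units in siControl and 9.34, 8.05 and 8.89 in siLSD1 and rose by 0.49 (SE 0.08, adjusted p = 0.00111). Phox2a, a master regulator of noradrenergic neurons, rose from 21.3, 21.1 and 21.5 to 29.1, 26.1 and 29 units (log2 difference 0.39, SE 0.06, adjusted p = 0.00133), and Id3, an inhibitor of bHLH factors, from 10.4, 9.77 and 9.1 to 14.4, 13.9 and 13.4 (0.50, adjusted p = 0.00134). In each the groups did not overlap. Th, tyrosine hydroxylase, the rate-limiting enzyme of catecholamine synthesis, rose from 2.12, 2.02 and 2.3 to 3.32, 3.14 and 3.43 units (0.57, SE 0.10, adjusted p = 0.00264), as 1 of 3 rises among 17 catecholamine and cholinergic genes. Ache, acetylcholinesterase, was the least firm of them, at 0.56 (adjusted p = 0.0265), a call lost without any 1 of the 6 arrays (adjusted p up to 0.103). Gch1, which makes the cofactor of Th, read 50.7, 49.5 and 49.1 units against 53.3, 47.2 and 50.8. Of 31 granins, processing enzymes and neuropeptides 2 rose and 0 fell (6 and 2 at an unadjusted p under 0.05, rescaled 6 and 1, 3 and 0, 5 and 1), Chgb and Vgf differing by 0.15 and 0.10 without passing the test.

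Channels and receptors of mature neurons were largely not called, and most were dim. A mean of at least 1 unit was reached by 11 of 80 potassium channel genes and 9 of 35 calcium and sodium channel genes. It was reached by 3 of 43 glutamate, GABA and glycine receptor genes and 3 of 15 nicotinic receptor genes. The counts were 1 rise and 1 fall in 80 potassium channel genes (rescaled 4 and 2, 3 and 1, 3 and 2), 1 and 0 in 35 calcium and sodium channel genes (3 and 0 at an unadjusted p under 0.05), 1 and 0 in 43 glutamate, GABA and glycine receptor genes (3 and 1), and 0 and 0 in 15 nicotinic receptor genes (1 and 0, rescaled 1 and 0, 1 and 0, 1 and 0) by limma. The potassium channel fall, of Kcnk12, was lost without siControl replicate 1 or siLSD1 replicate 1 or 3 (adjusted p up to 0.103). The rise of the GABA receptor gene Gabbr1 was lost without siControl replicate 1 or 3 or siLSD1 replicate 1 or 3 (adjusted p up to 0.187) and on averaging its probe sets (adjusted p = 0.681). Cacng3, a subunit that escorts AMPA receptors, read 3.81, 5.01 and 3.67 units in siControl and 8.19, 6.71 and 7.37 in siLSD1. With groups apart it rose by 0.81 (SE 0.11, adjusted p = 0.000417). Kcnab1, a beta subunit of voltage-gated potassium channels, rose from 4.29, 4.84 and 4.42 to 7.73, 6.19 and 7.44 units (0.63, SE 0.10, adjusted p = 0.00123). Chrna3, of the ganglionic nicotinic receptor, read 14.2, 13.2 and 12.5 units against 16.2, 12.7 and 14.5, a difference of 0.12 (adjusted p = 0.565).

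**Figure D4:**
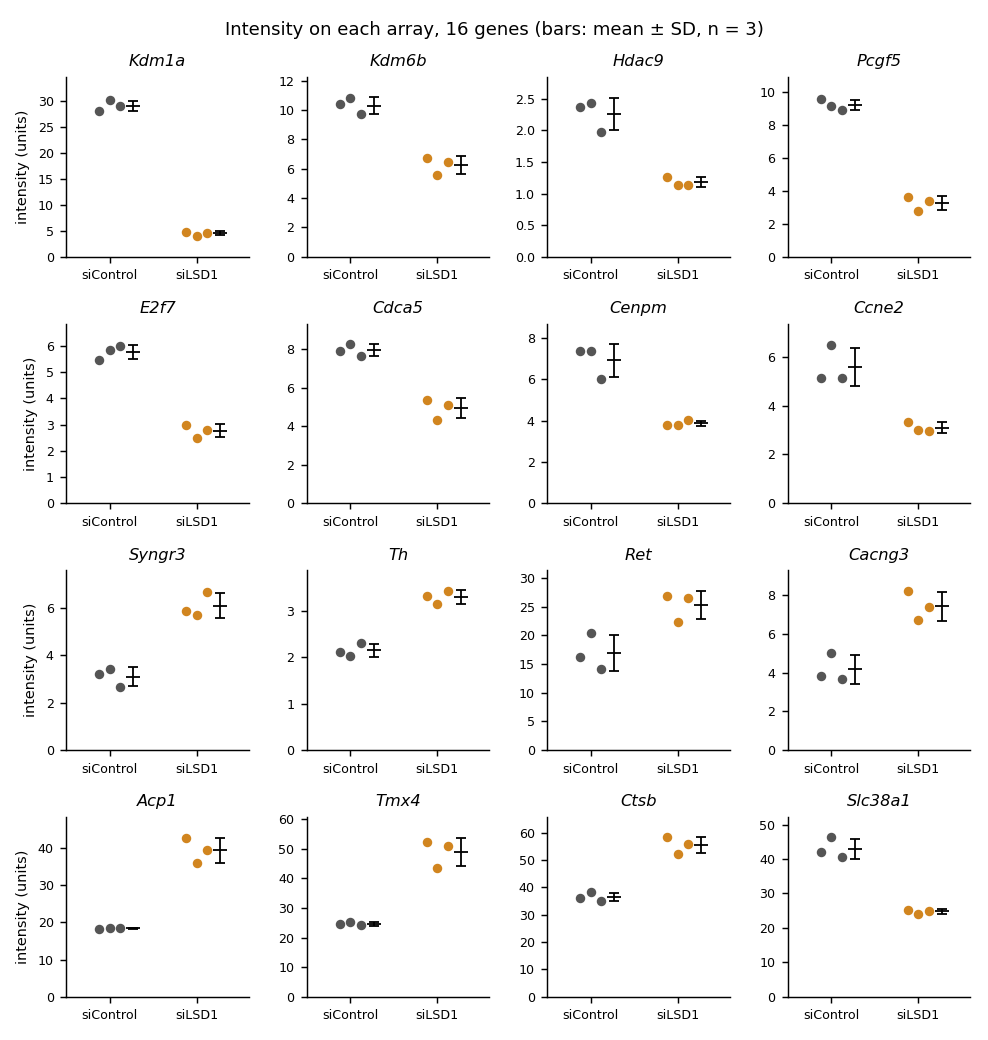
Intensity in deposited units (y axes, each from 0) of 16 genes on the 3 siControl and 3 siLSD1 arrays, in the order of replicates 1 to 3, with mean ± SD (n = 3) beside them. In every panel the 3 siLSD1 points lie apart from the 3 siControl points, which the naming rule required of called family members.

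Guidance and trophic receptors gave few calls each. Among 16 neurotrophin, GDNF and ALK receptor genes 2 rose and 0 fell (5 and 1 at an unadjusted p under 0.05, rescaled 5 and 0, 5 and 0, 5 and 1). Ret, the GDNF receptor tyrosine kinase, read 16.3, 20.4 and 14.1 units in siControl and 26.9, 22.4 and 26.5 in siLSD1. The control values were scattered but stayed below the others, and the rise was 0.58 (SE 0.11, adjusted p = 0.00492). Alk, a receptor kinase mutated in neuroblastoma, read 7.45, 8.72 and 7.17 units against 9.76, 9 and 9.52, and its difference of 0.27 did not pass (adjusted p = 0.0515). Of 31 semaphorins, plexins and neuropilins 3 rose and 1 fell (rescaled 5 and 2, 5 and 1, 5 and 2). Sema4f was dim in both groups, at 0.564, 0.797 and 0.642 units in siControl and 0.165, 0.149 and 0.171 in siLSD1, and fell by 1.25 (SE 0.18, adjusted p = 0.000685). Plxna1 rose by 0.43, a call lost without siControl replicate 1 (adjusted p = 0.0531). Neo1, the netrin receptor neogenin, read 15.2, 15.4 and 15.1 units against 23.5, 24.6 and 23.8 and rose by 0.65 (SE 0.06, adjusted p = 2.78e-05), a call lost on averaging probe sets (adjusted p = 0.133). It was 1 of 3 rises in 23 netrin and Slit genes, and the other 2, Unc5b and Unc5c, lost their calls without siControl replicate 1 or 3 or siLSD1 replicate 1 or 3, Unc5b also without siControl replicate 2 and Unc5c also without siLSD1 replicate 2 (adjusted p up to 0.0881 and 0.134). That left 1 rise without siControl replicate 1 or 3 or siLSD1 replicate 1 or 3. The rescaled counts of these 23 genes were 4 and 1, 4 and 0, 3 and 1, beside 3 and 0. Of 21 ephrin and Eph receptor genes 0 were called (2 higher and 3 lower at an unadjusted p under 0.05).

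Adhesion genes changed at single members. Among 20 integrins 5 rose and 1 fell, while the family median was -0.03, and 0.05, 0.04 and 0.01 under the 3 other scalings. Itga6, a laminin-binding alpha subunit, read 28.7, 29.5 and 28.5 units in siControl and 47.6, 41.7 and 44.6 in siLSD1. The groups were far apart and it rose by 0.62 (SE 0.07, adjusted p = 6.63e-05). Itga1 and Itgb3 rose by 0.66 and 0.76 and Itgb2 fell by 0.70, at levels under 2 units. Each lost its call without siControl replicate 1 or 3, and Itga1 without siLSD1 replicate 3, Itgb2 and Itgb3 without siLSD1 replicate 1 or 2 (adjusted p up to 0.106, 0.0871 and 0.119). The count of rises was 2 without siControl replicate 1 or 3 and 3 without any 1 siLSD1 array. Lama4, a laminin alpha chain, was the 1 rise among 52 collagens and laminins, from 19.5, 19.9 and 20.6 to 35.3, 30.4 and 34.7 units (0.73, SE 0.07, adjusted p = 2.48e-05). Of 56 cadherins 2 rose and 1 fell, and of 31 immunoglobulin adhesion molecules 2 rose and 1 fell (rescaled 3 and 2, 2 and 0, 3 and 2). Cdh22 lost its rise without siControl replicate 1 or siLSD1 replicate 3 (adjusted p up to 0.0671) and Mcam without siLSD1 replicate 3 (adjusted p = 0.068). The fall of Nectin3 was lost without siControl replicate 2 or 3 or siLSD1 replicate 2 (adjusted p up to 0.0763). Pcdh1, a protocadherin, rose by 0.43 (adjusted p = 0.00748). Ncam1, a neural adhesion molecule, read 28.8, 32.1 and 29.9 units against 28.8, 24.8 and 26.1, a difference of -0.19 (adjusted p = 0.126).

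The immediate early and ERK feedback genes split evenly, with 7 rises and 7 falls in 36. The rises held feedback inhibitors of the ERK kinases, and also the transcription factor gene Jun. Dusp4, a nuclear phosphatase of ERK, read 44.4, 43.7 and 41.3 units in siControl and 65.4, 62.8 and 63.6 in siLSD1, and Spry2, a Sprouty inhibitor of receptor signalling, 9.12, 10.2 and 9.2 against 14, 13.3 and 13.5. Groups were apart in both, with rises of 0.57 (SE 0.06, adjusted p = 7.97e-05) and 0.51 (SE 0.07, adjusted p = 0.000534). The falls held transcription factors such as Egr1 and Klf4, the latter at 7.12, 8.97 and 8.85 units against 5.67, 5.49 and 5.2 (log2 difference -0.58, SE 0.09, adjusted p = 0.000909). Dusp5 and Dusp2, of the same gene family as Dusp4, fell too, so neither kind of gene went only up or only down. Myc read 29.2, 29.1 and 30 units against 32.3, 24.6 and 27.9 and was not called. Without siControl replicate 1 or 2 or siLSD1 replicate 2 or 3 there were 4 falls.

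Of 50 G protein subunits and RGS regulators 4 rose and 4 fell. Rgs4, which shortens Gq and Gi signalling, read 2.44, 2.62 and 1.91 units in siControl and 1.05, 1.18 and 1.21 in siLSD1, a fall of 0.90 (SE 0.15, adjusted p = 0.00202), and Gng3, a neuronal gamma subunit, 3.09, 3.16 and 2.88 against 5.02, 4.18 and 4.05 (0.50, SE 0.10, adjusted p = 0.00507). Neither overlapped. Rises numbered 13 after quantile normalization and after centring on genes of at least 4 units, and 9 after median centring, against 4, 4 and 3 falls, so the even split depended on the scaling. They numbered 2 without siControl replicate 1 and 1 without siControl replicate 3 or any 1 siLSD1 array.

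Developmental pathways gave few calls. The Wnt pathway had 1 rise and 1 fall in 53 (rescaled 3 and 2, 1 and 1, 3 and 3), and the Notch pathway 1 and 2 in 31 (rescaled 3 and 2, 3 and 2, 3 and 2). The TGF-beta and BMP pathway had 3 and 3 in 56 (rescaled 9 and 5, 7 and 2, 9 and 4), so its even split became an excess of rises under each other scaling. FGF, PDGF, VEGF and EGF family genes had 0 and 2 in 53 (2 and 5 at an unadjusted p under 0.05, rescaled 1 and 2, 1 and 2, 1 and 3). The Wnt receptor gene Fzd2 lost its fall without siControl replicate 1 or 3 or siLSD1 replicate 1 or 3 (adjusted p up to 0.0981), and the neuregulin gene Nrg2 without siControl replicate 1 or 2 or siLSD1 replicate 2 or 3 (adjusted p up to 0.151). Smad5, a BMP signal transducer, read 7.91, 7.98 and 7.63 units in siControl and 4.69, 4.12 and 4.06 in siLSD1, a fall of 0.84 with groups apart (SE 0.08, adjusted p = 1.85e-05). Fstl1, a secreted BMP antagonist, rose from 17.9, 18.1 and 17.3 to 29.8, 25.6 and 27.2 units (0.62, SE 0.07, adjusted p = 5.64e-05). Pdgfc, a PDGF receptor ligand, fell from 2.85, 3.2 and 3.53 to 1.48, 1.09 and 1.14 units (-1.25, SE 0.12, adjusted p = 3.41e-05). The beta-catenin gene Ctnnb1 read 60.1, 64.5 and 56.7 units against 63, 60.2 and 61, a difference of 0.02. Interferon response and antigen presentation genes gave 2 rises and 2 falls in 33 (rescaled 3 and 2, 3 and 2, 3 and 2), the fall of the chemokine Cxcl10 being lost without siControl replicate 1 (adjusted p = 0.0578). Bst2, an antiviral tether, rose from 2.22, 2.6 and 2.51 to 5.43, 4.39 and 5.38 units (0.99, SE 0.10, adjusted p = 4.46e-05), and B2m, the light chain of MHC class I, from 33.7, 35.8 and 34.6 to 45.1, 42.2 and 44.3 (0.33, SE 0.06, adjusted p = 0.00271).

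Lysosomal genes rose in a few bright members. Of 55 measured, 7 rose and 0 fell (13 and 2 at an unadjusted p under 0.05), beside a family median of 0.01. Ctsb, a cysteine cathepsin, read 36.1, 38.2 and 35.1 units in siControl and 58.2, 52.2 and 55.9 in siLSD1. It was 1.52 times control with groups apart (log2 difference 0.60, SE 0.06, adjusted p = 6.29e-05). The aspartyl cathepsin Ctsd rose by 0.44 (SE 0.07, adjusted p = 0.00231) and Ctsz by 0.35 (SE 0.07, adjusted p = 0.00637). The glycosidases Gaa and Hexa, at 0.28 and 0.23, lost their calls without siControl replicate 1 or 3 or siLSD1 replicate 1 or 3, Hexa also without siControl replicate 2 (adjusted p up to 0.134 and 0.122). Lamp1, the major lysosomal membrane protein, read 98.3, 101 and 97.2 units against 105, 98.9 and 96.4. The rises numbered 3 without siControl replicate 1 or siLSD1 replicate 1 or 3, and 4 without siControl replicate 2 or 3. After quantile normalization 2 fell and after centring on genes of at least 4 units 1 fell.

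Lipid enzymes were mixed. Of 28 fatty acid synthesis, elongation and desaturation genes 5 rose and 1 fell (rescaled 10 and 3, 7 and 1, 11 and 1). Acsl4, which activates arachidonic acid, read 12.6, 14.5 and 11.9 units in siControl and 22.2, 24.8 and 24.3 in siLSD1, with groups apart (log2 difference 0.86, SE 0.08, adjusted p = 2.27e-05). Elovl7, a fatty acid elongase, rose from 9.32, 8.79 and 8.08 to 13.3, 12 and 12.6 units (0.52, SE 0.07, adjusted p = 0.000374). Elovl4, which makes very long chains, was the fall at -0.52, a call lost on averaging probe sets (adjusted p = 0.0601), and the desaturase Scd2 read 107, 108 and 101 units against 108, 106 and 108. Without siControl replicate 1 or siLSD1 replicate 1 or 3, 2 rises were called, and 3 without siControl replicate 3. Sterol and isoprenoid enzymes gave 2 rises and 2 falls in 24 (rescaled 4 and 4, 4 and 2, 4 and 4), with Fdps and Sqle, the brightest not called, at -0.05 and 0.01. Of 27 fatty acid oxidation genes 2 fell and 0 rose (5 and 1 at an unadjusted p under 0.05, rescaled 0 and 4, 0 and 2, 1 and 4). The falls were those of Acadl, a dehydrogenase of long chains, whose call was lost on averaging probe sets (adjusted p = 0.319), and of Acad11, lost without siControl replicate 1 (adjusted p = 0.0652).

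Central carbon metabolism changed at its hexokinases and at single enzymes. Hk1 and Hk2, which phosphorylate glucose, both rose. Hk1 read 24.7, 27.5 and 23.9 units in siControl and 36.2, 31.2 and 34.7 in siLSD1, and Hk2 21.5, 22.7 and 19.1 against 28.5, 26.1 and 28.5, with rises of 0.42 (SE 0.07, adjusted p = 0.00214) and 0.39 (SE 0.07, adjusted p = 0.00276) and no overlap. With the glucose transporter Slc2a3 these were the 3 rises among 22 glycolysis genes, beside 0 falls by limma (2 at an unadjusted p under 0.05). Slc2a3, at 0.33, lost its call without siControl replicate 1 or 3 or siLSD1 replicate 1 or 3 (adjusted p up to 0.0871). After quantile normalization 2 genes of the pathway fell and after centring on genes of at least 4 units 1 fell. Ogdh, the E1 subunit of the 2-oxoglutarate dehydrogenase complex, was the 1 call in 24 citric acid cycle genes (rescaled 2 and 4, 0 and 1, 4 and 4). It fell from 12, 12.4 and 10.6 to 7.05, 6.21 and 6.89 units, to 57.5% of control (log2 difference -0.78, SE 0.08, adjusted p = 6.48e-05).

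Of 92 respiratory chain and ATP synthase subunits 1 fell and 0 rose (3 and 7 at an unadjusted p under 0.05). Cox5a, a subunit of cytochrome oxidase, read 80.6, 82.2 and 76.3 units in siControl and 59.1, 59.8 and 56.5 in siLSD1. It fell by 0.45 with groups apart (SE 0.06, adjusted p = 0.000547). After centring on genes of at least 4 units 10 subunits rose and 2 fell, and after quantile normalization 4 and 3. Serine and one-carbon enzymes had 1 fall in 20 (rescaled 4 and 2, 2 and 1, 3 and 2) and amino acid starvation and ER stress genes 1 rise in 35 (rescaled 2 and 3, 1 and 0, 4 and 1). Both, Psat1 at -0.25 and Edem1 at 0.20, lost their calls without siControl replicate 1 or 2 or siLSD1 replicate 3, Psat1 also without siLSD1 replicate 2 and Edem1 without siControl replicate 3 or siLSD1 replicate 1 (adjusted p up to 0.133 and 0.148). Hspa5, the ER chaperone BiP, read 145, 142 and 130 units against 144, 133 and 133.

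The protein synthesis machinery stayed near its control level. Of 50 cytosolic ribosomal protein genes 1 fell and 0 rose (3 and 1 at an unadjusted p under 0.05), with a median of -0.02. Rps25, a small subunit protein, read 44.7, 44.2 and 46.6 units in siControl and 38.1, 34.9 and 35.6 in siLSD1, a fall of 0.32 (SE 0.06, adjusted p = 0.00538) that lost its call under median centring (adjusted p = 0.0733). Rpl38 read 199, 189 and 187 units against 198, 190 and 185 and Eef1a1, the elongation factor that brings tRNA to the ribosome, 191, 175 and 170 against 179, 175 and 165. Rises and falls numbered 2 and 1 in 56 translation factors (rescaled 4 and 7, 4 and 1, 5 and 3) and 2 and 3 in 76 mitochondrial ribosomal proteins (rescaled 4 and 6, 4 and 3, 5 and 5). They numbered 1 and 3 in 41 ribosome assembly factors (rescaled 3 and 4, 3 and 3, 2 and 3) and 0 and 2 in 47 proteasome subunits (2 and 3 at an unadjusted p under 0.05, rescaled 0 and 5, 0 and 2, 0 and 2). In 19 cytosolic tRNA synthetases limma called 0 and 0 (5 and 0 at an unadjusted p under 0.05, rescaled 2 and 0, 0 and 0, 4 and 0). Psmb2, a proteasome subunit, lost its fall without siLSD1 replicate 3 (adjusted p = 0.0661), and Mrps6, of the small mitochondrial subunit, its rise without siControl replicate 1 (adjusted p = 0.0609). Mrpl23, of the large mitochondrial subunit, rose from 35.3, 33.4 and 34.6 to 46.8, 41.6 and 45 units (0.37, SE 0.07, adjusted p = 0.00328). Falls of mitochondrial ribosomal proteins numbered 1 without siControl replicate 1 or 2 or siLSD1 replicate 2 or 3.

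Of 72 splicing factors and hnRNPs 5 fell and 0 rose (19 and 0 at an unadjusted p under 0.05), with a median of -0.11. Hnrnph3 read 6.17, 6.12 and 5.5 units in siControl and 4.49, 4.42 and 4.34 in siLSD1 and fell by 0.41 (SE 0.09, adjusted p = 0.00974), a call lost without siControl replicate 1 (adjusted p = 0.0543). Falls numbered 22 after quantile normalization, 10 after centring on genes of at least 4 units and 4 after median centring. They numbered 1 without siControl replicate 1 or 2, 2 without siLSD1 replicate 2 and 3 without siControl or siLSD1 replicate 3. Nuclear pore and transport factors gave 6 falls and 2 rises in 52 (rescaled 4 and 13, 4 and 3, 4 and 11), the majority turning after centring on all genes. Ipo9, an importin of histones, fell from 17.4, 18.6 and 15.6 to 13.2, 10.6 and 12.1 units (-0.52, SE 0.09, adjusted p = 0.00196). The falls of this family numbered 1 without siControl replicate 1, 2 without siLSD1 replicate 3 and 3 without siControl or siLSD1 replicate 2.

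Among 82 chaperones 5 fell and 2 rose (rescaled 6 and 8, 6 and 5, 8 and 9), the majority turning after centring on all genes, and 1 rose without siControl replicate 3 or siLSD1 replicate 1 or 3. Dnajc27, a J-domain protein with a Rab-like GTPase fold, read 4.63, 4.9 and 4.41 units in siControl and 2.13, 2.02 and 2.22 in siLSD1, at 45.7% of control. It fell by 1.06 (SE 0.08, adjusted p = 5.12e-06). Dnajc9, a histone chaperone, fell by 0.43 (SE 0.06, adjusted p = 0.000305), and Bag3, a cochaperone of selective autophagy, rose from 14.8, 18 and 14.9 to 23.4, 22.6 and 24.4 units (0.56, SE 0.07, adjusted p = 0.000346). Hspa8, the constitutive Hsc70, read 180, 188 and 161 units against 167, 177 and 163, a difference of -0.06.

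Large gene families gave rises and falls side by side. Of 319 solute carriers 18 rose and 10 fell (rescaled 34 and 17, 29 and 9, 36 and 17). Slc41a2, a magnesium transporter, read 3.37, 3.74 and 3.39 units in siControl and 6.48, 6.11 and 6.01 in siLSD1, a log2 difference of 0.79 (SE 0.08, adjusted p = 3.23e-05). Slc36a1, a lysosomal amino acid transporter, rose from 6.96, 7.01 and 7.74 to 13.3, 11.3 and 12.5 units (0.76, SE 0.08, adjusted p = 3.68e-05). In both the groups were apart. Slc7a14 rose by 0.68, and Slc38a1, a glutamine transporter of neurons, fell by 0.79 (SE 0.06, adjusted p = 6.94e-06). Rises of the family numbered 10 without siControl replicate 1 or 3 or siLSD1 replicate 1 and 9 without siLSD1 replicate 3, and falls 5 without siControl replicate 2 and 6 without siLSD1 replicate 3. Of 333 Zfp zinc finger genes 12 fell and 7 rose (rescaled 15 and 16, 11 and 13, 16 and 18), the excess of falls shrinking with each scaling, and 2 rose without siControl replicate 1 or 3 and 4 without siLSD1 replicate 1 or 3. Zfp367, a zinc finger protein, fell from 5.9, 8.59 and 6.82 to 4.2, 3.74 and 3.47 units (-0.85, SE 0.12, adjusted p = 0.000477).

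Kruppel-like and Sp factors, which bind GC-rich promoters, gave 5 falls and 3 rises in 23 (rescaled 4 and 6, 4 and 3, 4 and 6), the majority turning after centring on all genes. Klf7, a factor of neurite growth, read 5.58, 6 and 6.34 units in siControl and 8.16, 7.96 and 7.5 in siLSD1 and rose by 0.39 (SE 0.07, adjusted p = 0.00356). Without siControl replicate 2 or siLSD1 replicate 3 there were 2 falls and without siControl replicate 1 or siLSD1 replicate 2 there were 3. Sox9, a factor of neural crest and glia, rose from 1.93, 2.42 and 1.87 to 3.49, 3.74 and 3.48 units (0.74, SE 0.13, adjusted p = 0.00216) as the 1 call in 19 Sox genes. Of 37 forkhead genes 3 fell and 1 rose (rescaled 2 and 5, 1 and 4, 2 and 5), with Foxk1 at -0.39 and Foxd1 at -0.35, and 5 fell without siLSD1 replicate 1. Of 40 kinesins 5 fell and 3 rose. The rises, Kif5a, Kif1b and Kif5c, numbered 0 without siControl replicate 1 and 1 without siControl replicate 3 or any 1 siLSD1 array, and the falls 2 without siControl replicate 1 and 3 without siControl replicate 2 or 3 or siLSD1 replicate 2 or 3. Kif1b turned to -0.12 when all its probe sets were averaged. Of 21 tubulins 4 rose and 1 fell, and of 59 Rab GTPases 1 rose and 2 fell (rescaled 4 and 4, 1 and 2, 5 and 3), Rab22a by 0.52 (SE 0.07, adjusted p = 0.000458). By limma 0 of 48 keratins (1 higher and 4 lower at an unadjusted p under 0.05) and 0 of 38 olfactory receptors (3 and 2, rescaled 1 and 0, 1 and 0, 1 and 0) were called, and 1 of 33 Hox genes fell (rescaled 0 and 1, 0 and 0, 0 and 2).

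Family counts of 1 or 2 were the least firm. The rise of Smarcd2 (SWI/SNF), and 1 of 2 rises each of translation factors and p53 targets, were lost without siControl replicate 1 or 3 or siLSD1 replicate 1 or 3, and the fall of Cdh17 (cadherins) without any 1 array except siLSD1 replicate 3. The fall of Tube1 (tubulins) was lost without any 1 of the 6 arrays, and that of Hoxc10 without any 1 except siLSD1 replicate 1. Both falls of the Notch pathway, Maml1 and Numbl, were lost without siControl replicate 1 or 2 or siLSD1 replicate 3, and both rises of the sterol list, Scap and Dhcr7, without siLSD1 replicate 1. Both rises of nuclear pore factors, Nup93 and Kpnb1, were lost without siControl replicate 2 or 3 or siLSD1 replicate 1 or 3, the rise of Foxo4 (forkhead) without siControl replicate 1 (adjusted p = 0.0668), and the rise of Rab32 without siControl replicate 1 or 3 or siLSD1 replicate 3.

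The 1000 brightest genes, with means of 25.3 to 193 units, held 44.9% to 46.4% of the summed gene signal on each of the 6 arrays. Among them 82 rose (8.2%) and 53 fell (5.3%), and 865 were not called. Changes were modest: the median rise was to 1.27 times control and the median fall to 79.5%, against 1.37 times and 72.1% over all called genes, and 14 rises and 6 falls were at least 1.5-fold. After quantile normalization 131 rose and 164 fell, so the excess of rises over falls in bright genes depended on the scaling. Without siControl replicate 1, 53 rose, and without siControl replicate 2, 30 fell.

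Acp1, a low molecular weight tyrosine phosphatase, had the largest rise among bright genes. It read 18.2, 18.5 and 18.5 units in siControl and 42.7, 36.1 and 39.4 in siLSD1 (2.14 times control, log2 difference 1.09, SE 0.07, adjusted p = 1.13e-06). Its siMyT1 arrays read 42.9, 46.8 and 47.4, against the same controls. Tmx4, a thioredoxin-like protein of the ER membrane, read 24.4, 25.2 and 24.1 units against 52.3, 43.4 and 50.8 (log2 difference 0.98, SE 0.07, adjusted p = 3.62e-06). Olfm1, a secreted olfactomedin of neurons, went from 18.8, 19.7 and 20 to 37.4, 32.2 and 34.6 units, and Cavin2, a coat protein of caveolae, from 34, 35.6 and 35.3 to 63.5, 57.9 and 58.8. On the siMyT1 arrays Cavin2 read 61.2, 60.7 and 66.9 units, while Tmx4 read 26.9, 27.9 and 29 and Olfm1 21.7, 21 and 22.7. The siControl and siLSD1 groups of these 4 genes were far apart. Pcp4, a calmodulin regulator of neurons, Dkk3, a secreted Dickkopf protein, and Zfpm1, the GATA cofactor FOG1, rose by 0.70, 0.69 and 0.68. Eps15, an endocytic scaffold, rose by 0.75, a call lost on averaging probe sets (adjusted p = 0.0557).

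Slc38a1 led the falls of bright genes, at 41.9, 46.3 and 40.7 units in siControl and 25.2, 24.1 and 25 in siLSD1. Cers5, a ceramide synthase, read 31.4, 32.8 and 32.9 units against 20.8, 18.6 and 21 (log2 difference -0.68, SE 0.07, adjusted p = 5.37e-05), and Got1, the cytosolic aspartate aminotransferase, 40.9, 39.7 and 39.9 against 27.2, 23.2 and 25.5 (-0.67, SE 0.07, adjusted p = 6.56e-05). In all 3 genes the groups were apart. Cop1, an E3 ubiquitin ligase, fell by 0.62, Aldh18a1, an enzyme of proline synthesis, by 0.61, Atad2, a bromodomain ATPase, by 0.55 and Rbms1, a single-strand binding protein, by 0.52. In intensity units the largest gains were those of Lgals1, galectin-1, from 135, 136 and 133 to 178, 166 and 160 units (log2 difference 0.32, adjusted p = 0.0199), and of Cavin2 and the imprinted gene Mest. The largest losses after Kdm1a were those of Hmgn1, a nucleosome-binding protein, from 109, 110 and 107 to 93.6, 80.7 and 84.6 units (-0.33, adjusted p = 0.0101), and of Cox5a. Means on the siMyT1 arrays were 165 units for Lgals1 and 91.6 for Mest, beside siLSD1 means of 168 and 98.4. For Hmgn1 and Cox5a the siMyT1 means were 111 and 80.1, beside siControl means of 109 and 79.7. Lgals1, Mest and Hmgn1 were named after their values were seen.

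Several probe sets of a gene give more than 1 reading of it, though whether they share sequence or read different transcripts was not examined. In a fit of 34945 single-symbol probe sets, 999 were higher (2.86%) and 1241 lower (3.55%). Of the genes, 4178 had 2 or more probe sets with a mean of at least 1 unit, 10758 probe sets in all, and 912 of these genes had at least 1 called. Every such probe set was higher in 88 genes and lower in 137, some but not all were called in 685, and 2 genes had calls in both directions. In the 685 genes, 1105 probe sets were not called, and 918 of them (83.1%) had the sign of the call. They were dimmer, at a median of 4.19 units against 6.29 for called probe sets, and changed less, with a median absolute difference of 0.20 against 0.42. The 225 genes with every probe set called became 121 without siLSD1 replicate 3, the lowest count on leaving out 1 array.

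The log2 differences of the brightest and the second brightest probe set correlated across the 4178 genes with Pearson's r = 0.73 and Spearman's rho = 0.63. These are values across genes from the same arrays, and genes are not independent replicates. Pearson's r was 0.67 over 2030 genes whose dimmer set had 1 to 4 units, and 0.79 over 1596 genes of 4 to 16 units and over 552 genes above. In the 912 genes with a call r was 0.84, and both probe sets had the same sign in 823. These genes were chosen by calls on the same differences, which by itself favours a higher r and like signs.

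**Figure D5:**
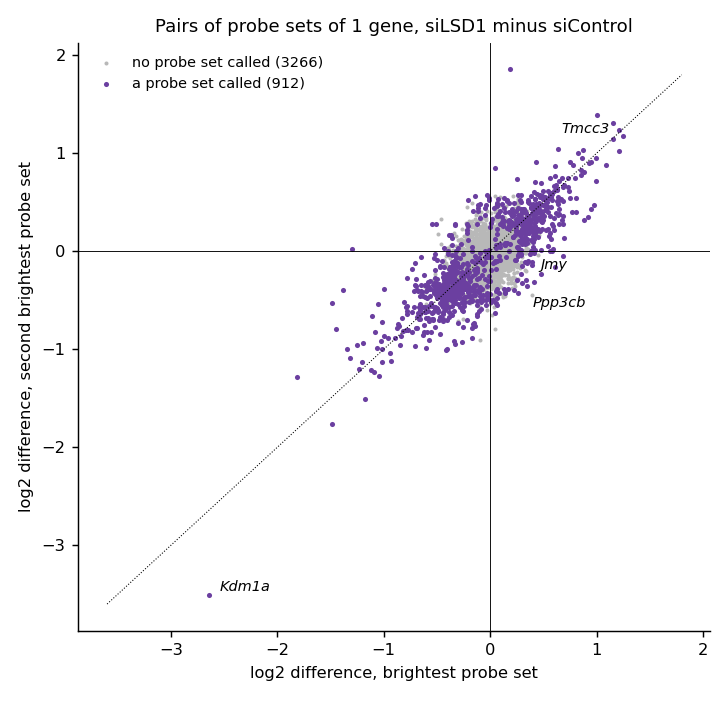
Log2 difference of siLSD1 minus siControl by the brightest (x axis) and second brightest (y axis) probe set of each of 4178 genes with at least 2 probe sets of 1 unit or more. Points of the 912 genes with a called probe set lie along the dotted line of equality (r = 0.84), with Kdm1a at the lower left and a few genes far off the line. The 912 genes were chosen by calls on the plotted differences, which favours a higher r.

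Tmcc3, a coiled-coil protein of the ER membrane, and Stom, the membrane protein stomatin, were each read by 5 bright probe sets, and all 10 rose. Those of Tmcc3 gave log2 differences of 1.25, 1.17, 0.76, 1.25 and 1.24, and those of Stom 1.16, 1.15, 1.04, 1.06 and 1.03. Deptor, an inhibitor of the mTOR kinase, had 4, with differences of 1.21, 1.23, 1.34 and 1.31. The brightest read 2.8, 2.55 and 2.35 units in siControl and 6.32, 6.06 and 6.15 in siLSD1. Ro60, the RNA-binding Ro autoantigen, had 4 from 0.73 to 1.21. With 3 each, Acp1 rose by 1.09, 0.88 and 0.94, Cavin2 by 0.78, 0.88 and 0.88, Acsl4 by 0.86, 0.95 and 0.79, Nav1, a neuron navigator of microtubules, by 0.94, 0.91 and 0.65, and Arvcf, a catenin of the p120 family, by 0.63, 1.04 and 0.82.

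Among genes whose probe sets all fell, Skp2 had 5, with log2 differences of -0.69, -0.67, -0.61, -0.69 and -0.76. Tex261, an adaptor of vesicle export from the ER, had 3, with differences of -0.94, -1.12 and -0.86. The brightest read 11.8, 12.8 and 10.7 units in siControl and 6.55, 5.49 and 6.11 in siLSD1, with groups apart. Smad5 fell by 0.84, 0.96 and 1.14, Prkar2a, a regulatory subunit of protein kinase A, by 0.85, 0.76 and 0.74, and the mitotic kinesin Kif11 by 0.61, 0.62 and 0.86. Rrm2 gave -0.63, -0.57 and -0.69, and Elavl3, a neuronal RNA-binding protein of the Hu family, -0.63, -0.83 and -0.54. Elavl3 thus fell, unlike most called members of the neuronal cytoskeleton and synaptic families.

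Calls in both directions were found in 2 genes. Ppp3cb, a catalytic subunit of calcineurin, read 17.7, 18 and 17.1 units in siControl and 21.5, 20.5 and 21.4 in siLSD1 by its brightest probe set, and 10.7, 12.2 and 10.3 against 8.29, 7.74 and 8.54 by the next. Both sets of arrays were apart, in opposite directions (0.26 and -0.42, adjusted p over probe sets = 0.0202 and 0.00703). Jmy, an actin nucleator and p53 cofactor, gave 0.33 and -0.29 by its 2 brightest (adjusted p over probe sets = 0.0129 and 0.0395). Tagln2, a transgelin, and Dnajb6, a chaperone against aggregation, were singled out after their values were seen, as the genes with a call whose 2 brightest probe sets were furthest apart. Tagln2 was level by its brightest probe set, at 28.8, 35.4 and 26.7 units against 36.4, 31.4 and 35.4, but rose by the next, of a type that may hybridise to several transcripts, from 11.8, 10.1 and 11.8 to 42.8, 32.8 and 49.4 (log2 difference 1.85, SE 0.16, adjusted p over probe sets = 3.3e-05). Dnajb6 fell by its brightest, from 28.3, 28.3 and 27.1 to 12.8, 9.51 and 11.7 units (-1.30), and by its dimmest at -0.94, while the one between read 13.1, 13.7 and 12.5 against 14.3, 12.2 and 13.4 (0.02). What sets these probe sets apart was not tested.

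Of the 286 called genes that the naming rule took, 155 had 2 or more bright probe sets. In 77 of them every bright probe set was called in the gene's direction, and in 144 every one had its sign. The other 11 had a bright probe set of opposite sign. They included Bmpr2, a BMP receptor called at 0.39 with another probe set at -0.11, and Kdm5a at -0.36 and 0.06.

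Beyond the 10 largest changes in each direction, ranks 11 to 30 ran from 1.21 down to 1.01 for the rises and from -1.34 to -1.09 for the falls. Most of these genes were of middle intensity. Wipi1, a phosphoinositide-binding protein of autophagosome formation, read 11.5, 13.2 and 11.8 units in siControl and 27.7, 26.5 and 27.6 in siLSD1. It rose to 2.24 times control (log2 difference 1.15, SE 0.06, adjusted p = 7.29e-07). Ampd3, an AMP deaminase, read 8.3, 8.61 and 9.02 units against 18.8, 17.1 and 17.7 (1.03, SE 0.06, adjusted p = 1.13e-06), and Cyp4b1, a cytochrome P450, 3.17, 3.51 and 3.5 against 8.37, 7.8 and 7.6 (1.18, SE 0.09, adjusted p = 3.62e-06). Surface proteins were among them: Icam2, a ligand of leukocyte integrins, rose by 1.17 and Procr, the endothelial protein C receptor, by 1.10. Icam2 and Procr are best known from endothelium, whose 4 markers summed to 0.796 to 1.66 units in siControl and 1.08 to 1.45 in siLSD1. Sgpp2, a phosphatase of sphingosine 1-phosphate, Mamdc2, Pdlim3, Nek3, Trim68, Garnl3 and Wipf3 rose by 1.21, 1.13, 1.11, 1.14, 1.12, 1.06 and 1.01. Of these Sgpp2 was dim, as none of its probe sets had a mean of at least 1 unit. Cst6 and Milr1 were under 0.5 units in control.

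Among the falls, Zzz3, a subunit of the ATAC acetyltransferase complex, read 14.8, 14.5 and 13.1 units in siControl and 5.47, 5.34 and 5.83 in siLSD1. It fell to 39.2% of control (log2 difference -1.32, SE 0.07, adjusted p = 7.16e-07). Bend4, a BEN domain protein, read 13, 14.2 and 12.1 units against 5.43, 6.11 and 5.55 (-1.17, SE 0.08, adjusted p = 1.39e-06), and its relative Bend7 fell by 1.18 at about 1 unit. Adat2, a tRNA adenosine deaminase, fell from 4.45, 4.52 and 4.04 to 1.61, 1.49 and 1.67 units (-1.34, SE 0.12, adjusted p = 1.28e-05). Inpp5a, an inositol trisphosphate phosphatase, fell by 1.22, Atmin, a cofactor of the ATM kinase, by 1.20, Dolpp1, a dolichyl pyrophosphate phosphatase, by 1.19 and Nuak1, an AMPK-related kinase, by 1.09. Letmd1 fell from 19.7, 21.8 and 20.4 to 9.69, 9.33 and 9.09 units and Ube2v1, a partner of the ubiquitin enzyme UBC13, from 21.8, 21.4 and 20.1 to 11.2, 8.89 and 9.4. In each of these genes the 3 siLSD1 arrays lay below the 3 control arrays, a condition of these ranks. H1f7, a linker histone of the testis, was dim, and its call was lost without siControl replicate 1, siLSD1 replicate 1 or siLSD1 replicate 3 (adjusted p up to 0.0853).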

How the data were processed

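RNA of 9 Neuro2a samples was measured on a mouse expression array of 45101 probe sets. The authors deposited linear probe set intensities, their software and normalization being not given in the sources used here, and whole-array totals ran from 196271 to 219953. Of the probe sets, 34945 carry a single gene symbol, 932 carry several and 10156 in all have no single one. Each of 18193 genes was read by its brightest single-symbol probe set, by the mean over all 9 arrays. Log2(intensity + 0.2) was fitted by group over all 9 arrays in limma 3.58.1 (R 4.3.3) with an intensity trend, and p-values were adjusted by Benjamini-Hochberg over all genes. Probe sets were fitted separately. The fit was tested on simulated data. Depth has no counterpart on arrays, and the number of arrays limits the precision.

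Named genes were Kdm1a, up to 5 called members per family by adjusted p and the 2 brightest not called, the 10 largest rises and falls of bright genes, the genes with the most concordant probe sets or with calls both ways, and ranks 11 to 30 by log2 difference. This rule took called family members and ranks 11 to 30 only where the arrays of the groups lay apart. The members, families and lists were chosen with earlier results of these data known. Alternatives covered scaling, pseudocount, dim genes, probe sets, trend, array weights, the 6 arrays alone, a replicate block and each array left out. Same-numbered arrays did not deviate together, so the arrays were not paired. Promoter sequences are RefSeq's on GRCm38.p6. A result that falls under the rule for named genes is not reported here.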

Additional observations from a re-analysis of the deposited data

How the results depend on the processing

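The fall of Kdm1a kept its direction and call under every alternative run, from -3.51 to -2.45, and from -2.69 to -2.57 without any 1 array. Genes higher (722) numbered 1415 after quantile normalization, 1250 and 1472 after centring on all genes and on genes of at least 4 units, 456 with all probe sets averaged, 1318 with array weights and 431 to 731 without 1 array. Genes lower (898) numbered 1394 after quantile normalization, 1648 with array weights and 522 to 799 without 1 array. Bright genes higher (82) numbered 131 after quantile normalization, 180 after centring on genes of at least 4 units, 46 without the intensity trend, 127 with array weights and 53 to 94 without 1 array. Bright genes lower (53) numbered 164, 22 after centring on all genes, 81 with dim genes left out, 24 without the trend, 80 with weights and 30 to 59 without 1 array. Genes with every bright probe set called (225) numbered 414 after quantile normalization, 416 after centring on genes of at least 4 units, 389 with dim genes left out, 131 without the trend, 393 with weights and 121 to 172 without 1 array; this count was not run with probe sets averaged. Of the 286 called genes whose probe sets were counted above, 4 changed direction. They were Kif1b (-0.12), Syp (-0.04) and Tubb4b (-0.08) with all probe sets averaged, and Rab3a (0.17) without probe sets that may cross-hybridise. The cause was not tested. With the replicate number as a block, 565 genes were higher and 693 lower, bright genes 61 and 40, the probe set count 153 and Kdm1a -2.64; the numbers do not pair the arrays. Of the same 286 called genes, 213 kept the call without any 1 array and 172 under every alternative. Errors were largest under 1 unit.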
